A study of Mus musculus with 2 samples.

Results

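Small nucleolar RNA host genes are described here in single mouse embryonic stem cells. The 8 genes, chosen by symbol after their levels and sonKD to control ratios in these cells had been looked at, are Gas5, Snhg1, Snhg3, Snhg5, Snhg6, Snhg8, Snhg12 and Zfas1. The table lists 32285 genes. All 8 host genes passed the filter on low values, a mean over the libraries of 10 CPM (counts per gene scaled to 1 common total in both libraries) or more, which left 8063 genes. The study compared E14 cells (129/Ola background) in medium with serum and leukaemia inhibitory factor. In the control library the cells had received control small interfering RNA (siRNA), and in the sonKD library siRNA against Son, both by lipofection and 24 hours before harvest. Son encodes an RNA-binding protein of nuclear speckles that takes part in splicing. Cells of both groups were frozen, thawed and sorted for exclusion of a viability dye before they were barcoded in droplets. Each group held 1 library of 1 cell line, so a difference between the libraries and an effect of the siRNA cannot be told apart, and no test was made.

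A small nucleolar RNA (snoRNA) guides the chemical modification or the cutting of ribosomal RNA. In mammals most snoRNAs are released from introns, and a host gene carries them there while its spliced exons form a separate RNA. Many hosts are noncoding. Their spliced RNAs are exported, often engage ribosomes over short reading frames and are then removed by nonsense-mediated decay. Several hosts, like the genes of ribosomal proteins, start at a terminal oligopyrimidine tract, a run of C and T that ties RNA use to growth signals. The counts described here come from a chemistry that captures polyadenylated RNA, and whether intronic reads of the hosts were counted is not given. The snoRNAs themselves were not measured.

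GENCODE M21 on GRCm38 placed 30 separate snoRNA loci inside the 8 genes, all on the strand of the host and all within introns. Gas5 holds 9 of them (1 is named Mir5117 there but typed as a snoRNA), Snhg1 holds 8, Snhg12 holds 4, Zfas1 holds 3, Snhg3 and Snhg5 hold 2 each, and Snhg6 and Snhg8 hold 1 each. The sequences below show what the hosts carry, as given by GENCODE M21. Capitals mark box C (TGATGA) and box D (CTGA) in box C/D snoRNAs, which guide ribose methylation, and the ACA that lies 3 bases before the end of a box H/ACA snoRNA, which guides pseudouridylation.
Snord47 in Gas5 (chr1:161038082-161038158, plus strand): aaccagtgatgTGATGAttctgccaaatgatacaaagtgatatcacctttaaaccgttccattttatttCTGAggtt
Snord50a in Snhg5 (chr9:88521529-88521600, minus strand): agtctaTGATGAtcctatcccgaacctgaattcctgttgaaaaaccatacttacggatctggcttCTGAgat
Snord50b in Snhg5 (chr9:88521797-88521868, minus strand): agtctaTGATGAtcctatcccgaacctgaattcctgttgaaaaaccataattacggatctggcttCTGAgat
Snora24 in Snhg8 (chr3:123507937-123508066, minus strand): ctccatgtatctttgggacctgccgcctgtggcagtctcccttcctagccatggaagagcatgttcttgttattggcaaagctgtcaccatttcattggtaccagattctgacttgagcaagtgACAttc

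The start sites were examined because the tract is what hosts and ribosomal protein genes are known to share. RefSeq start windows on GRCm38.p6 were found for 7 of the 8 genes, not for Snhg6. A C followed by at least 4 bases of C or T, with that C at most 5 bases from the annotated start and on the strand of the gene, was found in 4 of the 7, or 57.1%. The same letters were found in 28 of 57 ribosomal protein genes, or 49.1%, and in 21.2% of 27025 genes. The windows below run from 10 bases before the start over 30 bases in all, with the run in capitals.
Gas5 (chr1:161035156-161035185, plus strand): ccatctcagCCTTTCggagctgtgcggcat
Snhg8 (chr3:123508317-123508346, minus strand): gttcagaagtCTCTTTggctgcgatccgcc
Snhg12 (chr4:132308668-132308697, plus strand): ttctcagtCCTTTCTCgcttcatccgcggt
Snhg3 (chr4:132353667-132353696, minus strand): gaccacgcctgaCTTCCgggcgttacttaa
Snhg1, without a match (chr19:8723477-8723506, plus strand): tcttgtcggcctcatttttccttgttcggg
Rps6, a ribosomal protein gene for comparison (chr4:86857348-86857377, minus strand): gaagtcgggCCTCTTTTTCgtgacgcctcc
Gas5 has another RefSeq start, upstream of the one shown, without a match, and Snhg5 and Zfas1 had none. Rpl5, Rplp0 and Rps12, ribosomal protein genes looked up together with Rps6, also had no match. A match is a description of the letters and not evidence of a start used in these cells.

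Barcodes were taken as cells from 2500 unique molecular identifiers (UMIs, 1 per captured molecule) and 1000 genes upward, if mitochondrial UMIs did not exceed 10%. These were 4978 control and 2731 sonKD cells, with 40902904 and 32032551 UMIs and medians of 7737.5 and 11612 UMIs per cell, and 2 cell barcodes occurred in both libraries. All 8 stem cell markers were found, at a summed 8456 and 9219 CPM. Dppa5a alone was higher in sonKD, at 5027 and 6075 CPM, while Utf1 was level at 431 CPM and the other 6 were lower, among them Pou5f1 at 1104 and 916 CPM. The 6 fibroblast markers summed to 3.18 and 3.65 CPM with Col3a1 and Lum at 0, and the 6 primitive endoderm markers to 6.48 and 5.28 CPM. Mesoderm markers summed to 4.45 and 4.15 CPM, neuroectoderm markers to 58.1 and 54.0 CPM with Neurog2 at 0, and trophectoderm markers to 57.5 and 77.0 CPM with Elf5 at 0, where Krt8 and Krt18 made up nearly all of it. The level of Son, the siRNA target, was 169 CPM (95% interval 165 to 173) in control cells against 106 CPM (102 to 109) in sonKD cells, which is 62.7% of control.

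Gas5, Snhg6 and Snhg8 were higher in sonKD, at 155% to 183% of control, and the other 5 host genes lay between 80.3% and 110.0% of control. Gas5, named for its rise in growth-arrested cells, gave 8259 UMIs, or 202 CPM (198 to 206), in control cells. In sonKD cells it gave 10022 UMIs, or 313 CPM (307 to 319). Its log2 ratio, sonKD over control, was 0.63 (0.59 to 0.67). The 2 intervals of Gas5 lie far apart, and 99.2% of the 8063 genes had a lower ratio. Intervals are exact Poisson for CPM and exact conditional binomial for ratios, and they cover counting error only.

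Snhg6, the host of Snord87, was measured at 24.6 CPM (23.1 to 26.2) in control cells against 45.0 CPM (42.7 to 47.4) in sonKD cells. Its log2 ratio was 0.87 (0.75 to 0.99), the highest of the 8. Snhg8, the host of Snora24, was measured at 22.1 CPM (20.7 to 23.6) against 40.5 CPM (38.3 to 42.8), also with a log2 ratio of 0.87 (0.75 to 1.00). In both genes the sonKD level was 183% of control, and 99.7% of the 8063 genes had a lower ratio.

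Snhg3, which carries the H/ACA snoRNAs Snora73a and Snora73b, had 71.3 CPM (68.7 to 73.9) in control cells against 78.5 CPM (75.4 to 81.6) in sonKD cells, a log2 ratio of 0.14 (0.06 to 0.22). Zfas1, the host of Snord12, had 38.6 CPM (36.7 to 40.5) and 42.3 CPM (40.1 to 44.6), a ratio of 0.13 (0.03 to 0.24). Both were slightly higher in sonKD, and the intervals of Zfas1 overlap. Snhg12 had 63.3 CPM (60.9 to 65.8) and 63.8 CPM (61.1 to 66.7), a ratio of 0.01 (-0.07 to 0.10). Snhg1 had 112 CPM (109 to 115) and 109 CPM (105 to 113), a ratio of -0.04 (-0.10 to 0.03). The intervals of Snhg1 and Snhg12 include 0, and with trimmed-mean (TMM) factors, which raise every ratio by 0.090, Snhg1 was at 0.05. Snhg5, the host of the Snord50 pair shown above, had the lowest ratio, with 14.6 CPM (13.4 to 15.8) in control cells, 11.7 CPM (10.6 to 13.0) in sonKD cells and a ratio of -0.32 (-0.51 to -0.13).

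**Figure D1:**
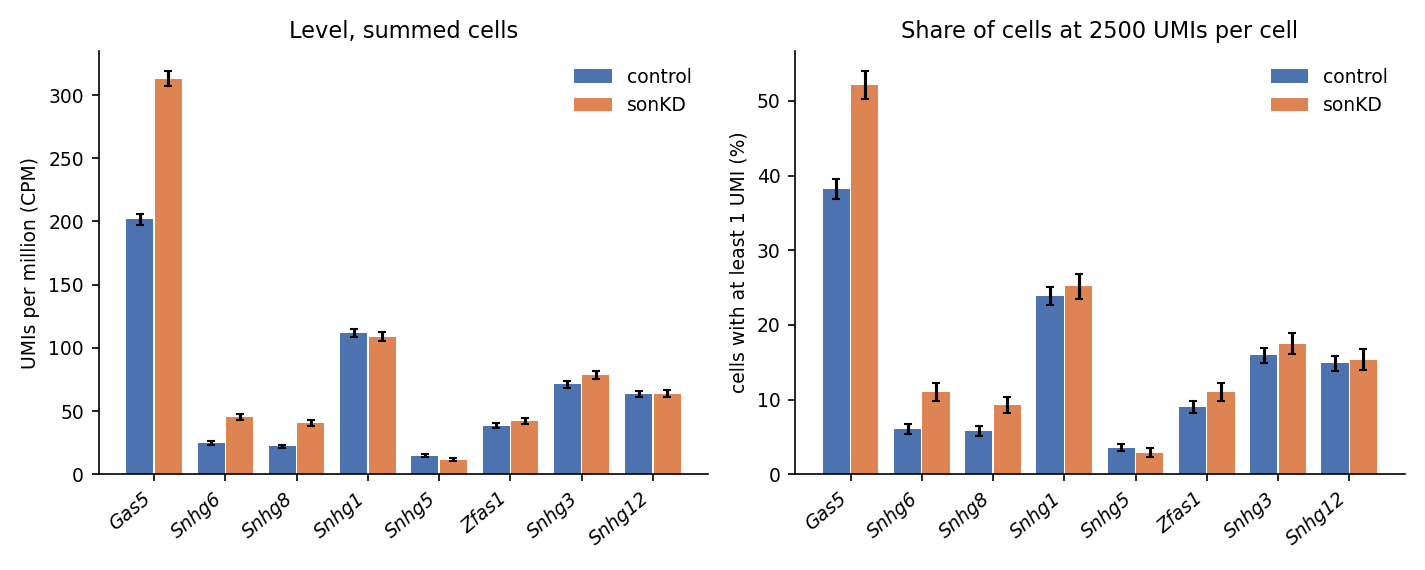
Left, level in CPM over the summed cells of each library for the 8 host genes, with 95% Poisson intervals; right, percent of cells with at least 1 UMI after every cell was thinned to 2500 UMIs, with 95% binomial intervals. Gas5, Snhg6 and Snhg8 stand higher in sonKD in both panels, and Snhg5 stands slightly lower.

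With 1 sample per group, genes were counted when their log2 ratio lay beyond 0.32 in either direction. Of all 8063 genes, 3.5% were higher in sonKD by more than this and 10.2% lower, and of the 8 host genes 3 were higher and 0 lower. With TMM factors the background became 5.57% higher and 4.60% lower, and with ribosomal protein and mitochondrial genes left out of the total 5.13% and 5.31%. The host genes were proposed with these ratios in view, so nothing is read from their count. Snhg5 lay just inside the lower limit, 0.0062 short of it on the log2 scale. No host gene lay near the upper limit: the nearest outside was Gas5 at 0.63, and the nearest inside Snhg3 at 0.14. The median ratio was 0.14 over the 8 host genes and -0.12 over all genes, of which 25.1% were above 0. Genes with a longest transcript under 1000 bases had a median of 0.09 over 422 genes, a class that holds Snhg3, Snhg6 and Snhg8.

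Summed, the 8 host genes reached 548 CPM (541 to 555) in control cells against 704 CPM (694 to 713) in sonKD cells, a log2 ratio of 0.36 (0.33 to 0.39). Gas5 carried a large part of this, and without it the ratio was 0.17 (0.14 to 0.21), from 346 to 391 CPM. Cells of sonKD were deeper and richer in ribosomal protein RNA, with 23.8% of UMIs against 20.4%, and mitochondrial UMIs were 4.19% against 3.82%. The part of these differences in the result was not tested. Among cells with 5000 to 15000 UMIs in both libraries the summed ratio was 0.39.

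The counts of a host gene can mix with those of its neighbours. Snhg3 (chromosome 4, 132348014 to 132353686) shares 5592 bases with Rcc1 on the same strand, and 5.78% of its 31-base words within 300 bases of a transcript end also occur in Rcc1. Rcc1, a chromatin-bound exchange factor, had a ratio of -0.26 (-0.37 to -0.15), below that of Snhg3. Snhg5 shared 11.9% of these words with 2 other transcripts, and the other 6 host genes shared none with another long transcript. Gas5 overlaps Zbtb37 by 428 bases, Snhg6 overlaps Mcmdc2 by 127 and Zfas1 overlaps Znfx1 by 82, each on the opposite strand. Retained-intron forms make up 20 of 25 annotated transcripts of Gas5, 14 of 18 of Snhg1 and 4 of 5 of Zfas1, and whether intronic reads were counted is not given in the sources used here.

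To compare detection at equal depth, a random draw of 2500 UMIs was kept from every cell. Of the control cells 38.2% (36.9 to 39.6) then held a Gas5 UMI, and of the sonKD cells 52.1% (50.2 to 54.0), against 74.7% and 93.0% without thinning. Snhg6 was found in 6.09% (5.44 to 6.79) and 11.0% (9.84 to 12.2), and Snhg8 in 5.81% (5.17 to 6.49) and 9.23% (8.17 to 10.4). The difference was 13.9 percentage points (11.5 to 16.2) for Gas5. It was 4.90 points (3.55 to 6.29) for Snhg6 and 3.42 points (2.16 to 4.73) for Snhg8. Zfas1 was found in 9.04% and 11.0%, a difference of 1.98 percentage points (0.56 to 3.44). These intervals do not cover the random draw itself. With another seed for the draw Zfas1 was found in 9.28% of control and 10.03% of sonKD cells, so its difference depended on the draw. Snhg1 in sonKD cells, at 25.2% (23.5 to 26.8) here, was at 22.4% with that seed, outside its interval. Gas5, Snhg6 and Snhg8 were again found in a larger share of sonKD than control cells.

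For the other 4 genes the interval of the difference included 0. Snhg1 was found in 23.9% and 25.2% of cells, Snhg3 in 15.9% and 17.5%, and Snhg12 in 14.9% and 15.3%. Snhg5 was found in 3.58% and 2.89%, a difference of -0.68 points (-1.50 to 0.18), which was not detectable at this depth. At least 1 of the 8 genes was found in 72.6% (71.3 to 73.8) of the control and 80.5% (78.9 to 82.0) of the sonKD cells. A thinned cell held a mean of 1.41 UMIs of the 8 genes in control and 1.82 in sonKD, with a variance 1.24 and 1.28 times the mean. The median number of different host genes per cell was 1 in both libraries, and 27.4% of control and 19.5% of sonKD cells held none.

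No cell type without host RNA was at hand as a background, so the free RNA of the suspension was measured in barcodes with 100 to 500 UMIs, 59886 in control and 62449 in sonKD. The 8 host genes were more abundant there than in cells, at a summed 723 and 972 CPM. Ribosomal protein genes took 32.7% and 37.6% of these UMIs. How many of the host UMIs in a cell came from free RNA was not tested.

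The host genes differed among themselves in this free RNA. Snhg1 reached 196 and 176 CPM there, with log2 ratios to the cells of the same library of 0.81 (0.74 to 0.87) and 0.69 (0.62 to 0.76). Snhg8 had 0.69 and 0.67, Snhg6 had 0.63 and 0.62, and Gas5 had 0.51 and 0.63. These values were close to those of the summed ribosomal protein genes, 0.68 and 0.66, while the median of all genes was -0.92 and -1.03. Zfas1 was at 0.22 and 0.37, and Snhg5 at 0.04 and 0.08 with intervals that included 0.

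Snhg3 and Snhg12 were less abundant in free RNA than in cells. Snhg3 had a log2 ratio of -0.43 (-0.54 to -0.32) in control and -0.49 (-0.60 to -0.39) in sonKD, and Snhg12 had -0.25 (-0.36 to -0.15) and -0.19 (-0.29 to -0.08). For comparison, Rcc1 was at -0.67 and -0.87, and the nuclear RNA Malat1 at -1.06 and -1.11. Both Snhg3 and Snhg12 still lay above the median of all genes.

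Barcodes of cell depth with more than 10% mitochondrial UMIs, 625 in control and 1056 in sonKD, gave another order. They were rich in Malat1, with log2 ratios to cells of 2.32 and 2.03, and poor in ribosomal protein RNA, at -0.93 and -0.87. Snhg3 was higher there than in cells, by 1.20 (1.03 to 1.37) in control and 0.83 (0.69 to 0.97) in sonKD on the log2 scale. Snhg12 was higher by 0.97 (0.78 to 1.16) and 1.255 (1.12 to 1.39). At least 94.4% of all genes lay below Snhg3 and at least 95.9% below Snhg12 in these barcodes. Snhg1 was at 0.33 and 0.55, while Gas5 was at 0.17 and -0.05 and Snhg8 at 0.01 and 0.06. Snhg6, at 0.51 and -0.23, and Zfas1, at 0.57 and 0.03, differed between the libraries in this. The medians of all genes were 0.15 and 0.11.

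**Figure D2:**
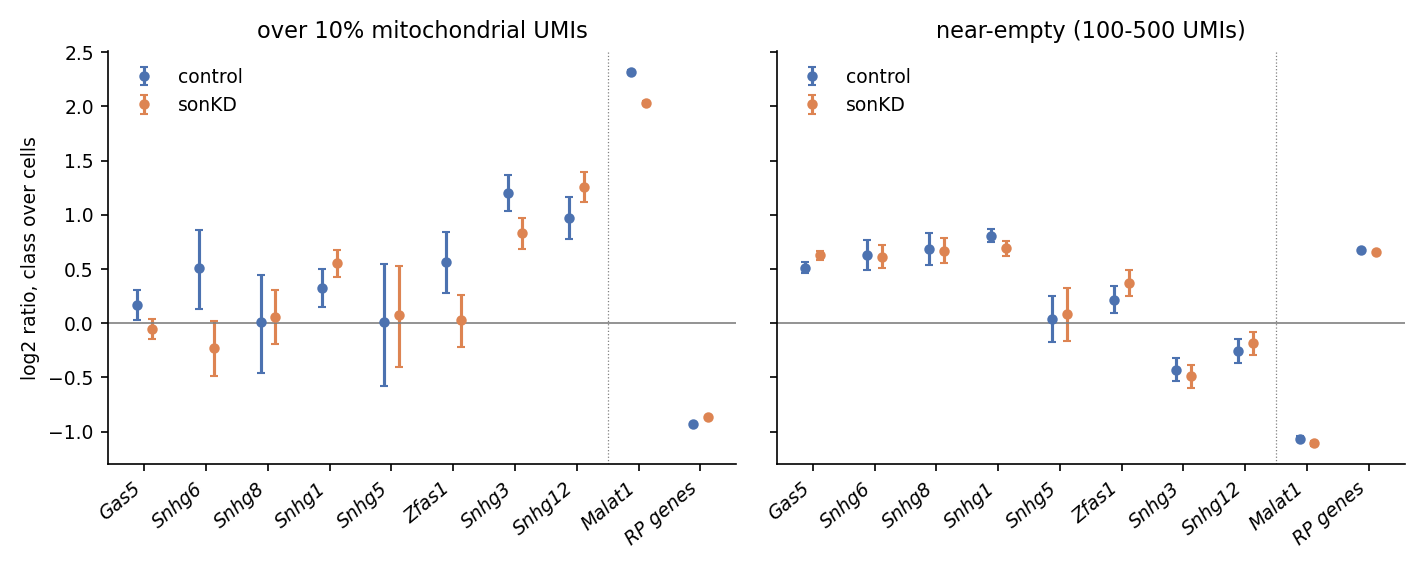
Log2 ratio of the level in barcodes with over 10% mitochondrial UMIs (left) and in near-empty barcodes (right) to the level in cells of the same library, for the 8 host genes, Malat1 and the 78 ribosomal protein genes (RP genes) summed, with 95% counting intervals. Snhg3 and Snhg12 lie above 0 on the left and below 0 on the right, while Gas5, Snhg6, Snhg8 and Snhg1 lie at 0.51 or above on the right.

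The ratios between the libraries were also taken within each class of barcodes. These classes come from the same 2 libraries, so they add no replicate. In near-empty barcodes Gas5 reached 288 CPM in the control library against 483 CPM in sonKD, a log2 ratio of 0.75 (0.70 to 0.80). Snhg6 had 0.86 (0.72 to 0.99) and Snhg8 had 0.85 (0.71 to 0.99) there, both within the intervals found in cells. Snhg1 was at -0.16 (-0.22 to -0.09) and Snhg5 at -0.27 (-0.53 to -0.02).

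In barcodes with over 10% mitochondrial UMIs Gas5 and Snhg8 were again higher in sonKD. Gas5 had a ratio of 0.41 (0.25 to 0.57) and Snhg8 of 0.92 (0.43 to 1.44), from 44 and 154 UMIs. Snhg6 had 0.14 (-0.29 to 0.58), and at 69 and 140 UMIs a difference between the libraries was not detectable. Snhg3 and Zfas1 were lower in sonKD in these barcodes, at -0.23 (-0.44 to -0.03) and -0.41 (-0.77 to -0.05), against the direction found in cells. Snhg12 was at 0.30 (0.08 to 0.52).

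**Figure D3:**
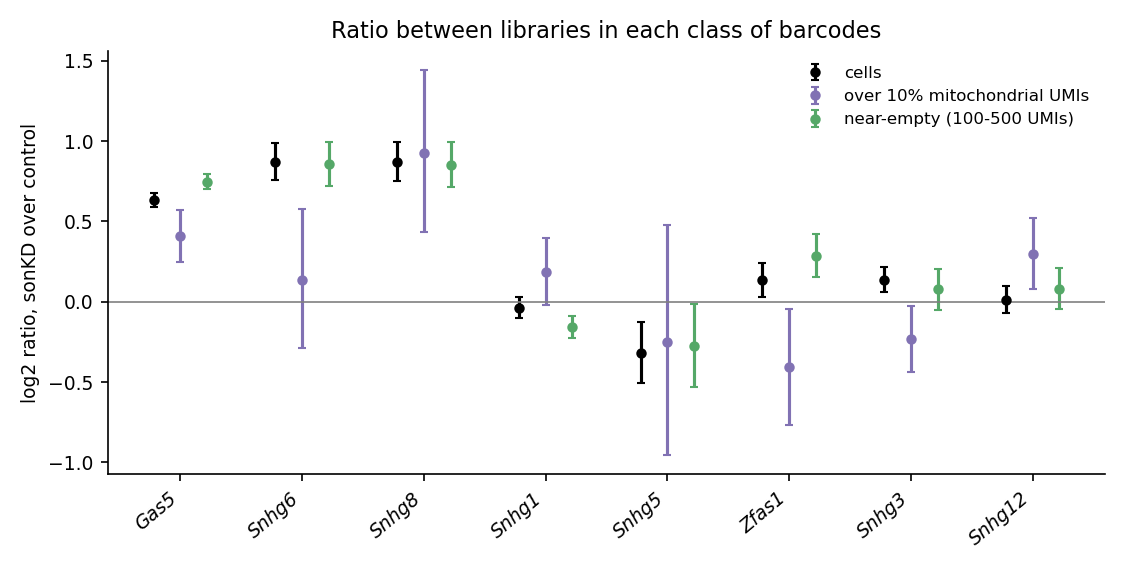
Log2 ratio of sonKD over control for each host gene in cells, in barcodes with over 10% mitochondrial UMIs and in near-empty barcodes with 100 to 500 UMIs, with 95% counting intervals. Gas5 and Snhg8 are above 0 in all 3 classes with intervals that exclude 0. Snhg6 and Snhg12 are also above 0 in all 3, but not always with an interval that excludes 0. Snhg5 is below 0 in all 3, with an interval that reaches 0 in the class with over 10% mitochondrial UMIs. Snhg3 and Zfas1 change sign in that class, as does Snhg1, whose intervals there and in cells include 0.

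The relation to ribosomal protein genes was examined first over genes and then over cells. Of the 78 ribosomal protein genes, 64 had a ratio above 0 and 14 below, with a median of 0.36, a lowest of -0.50 (Rpl21) and a highest of 1.99 (Rpl29). Beyond 0.32 were 43 on the higher side and 2 on the lower, where all genes had 3.5% and 10.2%. Near their transcript ends 75 of the 78 shared at least 20% of their 31-base words with other transcripts. Of the 8 host genes, 6 shared none with another long transcript. How shared reads were assigned, and its part in these counts, was not tested. The 3 ribosomal protein genes with less shared sequence had a median of 0.13. Ribosomal protein genes that themselves carry a snoRNA, 29 in all, had a median of 0.26, and the 49 without one had 0.37. Gas5, Snhg6 and Snhg8 lay above the median of all 78 and above that of the 3. The other 5 host genes lay below the median of all 78, and Snhg3 and Zfas1 were level with that of the 3.

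Over cells thinned to 2500 UMIs, rank correlations of the host genes with the ribosomal protein share were all below 0.1. The share had a mean of 20.7% of UMIs in control with an SD of 3.45 points over 4978 cells, and 24.0% with an SD of 3.91 points over 2731 sonKD cells, against 0.81 and 0.85 points from counting alone. Spearman's rho of the 8 genes summed with this share was 0.037 in control and 0.066 in sonKD. Single genes ranged from -0.038 (Snhg3) to 0.061 (Snhg1) in control and from -0.035 (Snhg3) to 0.073 (Gas5) in sonKD. Pearson's r of the sum was 0.044 and 0.066. These cells share a library and the counts are sparse, so no relation is read from values of this size. The 78 ribosomal protein genes had median rho values of 0.297 and 0.304 with the share of the others, and the other 7985 genes had -0.031 in both. The sum of the host genes lay above 91.9% of these other genes in control and above 97.9% in sonKD, and Gas5 above 87.9% and 98.3%. The other genes, taken from 10 CPM upward, were not matched in level to the sum or to Gas5, so nothing is read from these positions. The 95th percentile of the other genes was 0.054 and 0.037.

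Cells were also ranked by their ribosomal protein share and split into 5 groups of nearly equal size. The 8 genes summed came to 1.39 UMIs per control cell in the group with the lowest share (1.32 to 1.47) and 1.56 in that with the highest (1.49 to 1.64). In sonKD they came to 1.74 (1.63 to 1.85) and 2.05 (1.93 to 2.18). The log2 ratio of the highest to the lowest group was 0.17 and 0.24, while its median was -0.45 in both libraries over other genes and 0.66 in both over ribosomal protein genes. A larger ribosomal protein share leaves less room for all other genes at a fixed depth, and per 10000 UMIs of other genes the sum went from 6.63 to 8.38 in control and from 8.52 to 11.6 in sonKD.

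Among the members, Snhg8 had the highest ratio between these groups in both libraries, 1.00 (0.41 to 1.61) in control and 0.56 (-0.04 to 1.18) in sonKD. Gas5 had 0.18 (-0.004 to 0.36) and 0.37 (0.18 to 0.56), and Snhg1 had 0.44 and 0.41. Snhg3, at -0.28 and -0.26, Snhg5, at -0.38 and -0.30, and Snhg6, at -0.52 and -0.11, were lower in the highest group in both libraries, each with intervals that included 0. Malat1 came to 13.0 and 2.99 UMIs per control cell in the lowest and highest group, and median depth before thinning was 8928.5 and 6656.5 UMIs. In sonKD Malat1 came to 12.1 and 2.77, and the depth to 12125 and 9975.5. The part of nuclear RNA and depth in these values was not tested.

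**Figure D4:**
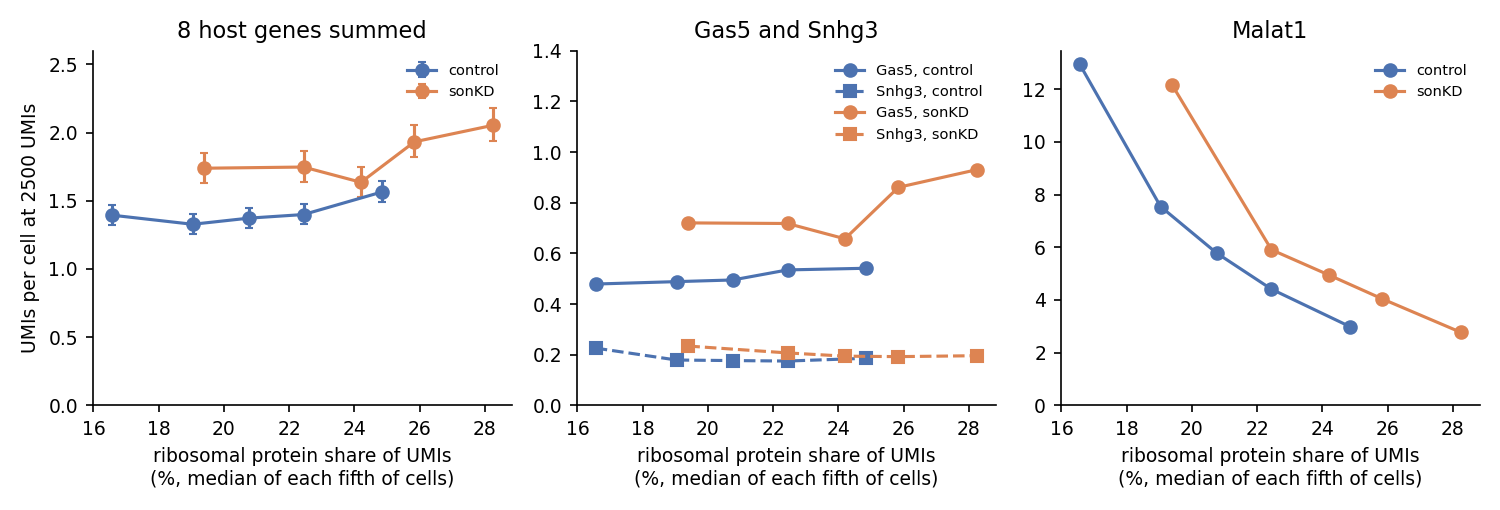
UMIs per cell, in cells thinned to 2500 UMIs, against the median ribosomal protein share of each of the 5 groups of cells, for the 8 host genes summed (with 95% Poisson intervals), for Gas5 and Snhg3, and for Malat1. The host genes stay between 1.33 and 1.56 in control and between 1.64 and 2.05 in sonKD, while Malat1 drops from 13.0 to 2.99 in control.

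Rank correlations between host genes were near 0 over the thinned cells. In these cells single host genes were found in only 2.89% (Snhg5) to 52.1% (Gas5) of cells, both in sonKD. Counts this sparse keep rho low, and pairs of equally sparse genes were not examined. Whether the host genes vary together is therefore not read from these values. Over the 28 pairs, Spearman's rho had a median of 0.016 in control, from -0.020 to 0.039, and of 0.018 in sonKD, from -0.026 to 0.074, and no pair was above 0.1. The highest pair was Snhg3 with Snhg12 in control and Gas5 with Snhg1 in sonKD. The genes most like the summed host genes over cells, among 1518 genes with at least 100 CPM in both libraries, were mt-Co1 with a mean rho of 0.095, Ftl1-ps1 with 0.094 and Rpl37a with 0.084. Gm42418, mt-Atp6, mt-Co2, Apoe, mt-Cytb, Mdm4 and Fth1 followed at 0.077 to 0.057. The least like were H2afz at -0.094, Hspa8 and Actg1 at -0.082, Dppa5a at -0.066 and Polr2e at -0.064. All of these are weak, and of the 100 highest genes 20 were ribosomal protein genes, which made up 73 of the 1518. The median rho of the 73 was 0.010 in control and 0.016 in sonKD, beside -0.008 and -0.009 over the 1518. Genes were not matched in level here, so nothing is read from this count.

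Genes around the host genes in the pathway were counted from lists. For comparison, 25.1% of all 8063 genes had a ratio above 0, with a median of -0.12. Of 19 other genes known for a terminal oligopyrimidine tract, 2 had ratios above 0 and 17 below, with a median of -0.15, Eef1d at -0.36 and Btf3 at -0.35. Both are translation-linked factors. Of 12 proteins of snoRNA-protein particles, 4 were above 0 and 8 below, with a median of -0.07. Gar1, of the H/ACA particle, was at 0.63 (0.56 to 0.71), and Nop56, of the box C/D particle and itself a host, at -0.42 (-0.46 to -0.39).

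Of 15 nonsense-mediated decay factors with at least 10 CPM, 3 were above 0 and 12 below, with a median of -0.13. These values were near those of all genes, of which 25.1% were above 0, with a median of -0.12. Smg5 was at -0.34 (-0.45 to -0.23) and Upf1, the helicase at the centre of the pathway, at -0.32 (-0.43 to -0.22). Of 7 genes of growth arrest and the p53 response, 4 were above 0 and 3 below, with a median of 0.04, Bbc3 at 0.17 (0.01 to 0.33) and Mdm2 at -0.14 (-0.20 to -0.08).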

How the data were processed

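Both libraries were made with 10x Genomics 3' chemistry. What the authors deposited are unnormalized UMI counts for every gene in every barcode, made with Cell Ranger 7.1.0 per the file headers, on mm10 per the submitters' processing notes. The aligner settings, annotation and treatment of intronic reads are not given in the sources used here. Groups were taken from the sample titles.

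Counts were summed over the cells of each library and scaled to CPM. Log2 ratios carry no pseudocount, and counts under 3 were set to 3. Intervals are at 95%. Doublets were not removed: Scrublet in scanpy 1.11.5 called 0.0603% of control and 0.0366% of sonKD cells, below the 0.5% of a working call, and an alternative removed the 198 and 60 cells with the highest scores. TMM factors came from edgeR 4.0.16. With 1 library per group no p-value was computed, and totals of 40902904 and 32032551 UMIs set the precision. The ratio intervals, the thinning and the rank correlation were tested on simulated data.

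The ribosomal protein list held 78 symbols, and 13 of the 15 other noncoding hosts listed were matched. Gene structures came from GENCODE M21, which holds 32158 of the 32285 identifiers, and start windows from RefSeq on GRCm38.p6. Beside the 8 host genes and Son, the text names the lowest and highest or 2 farthest genes of a list, and the 10 most and 5 least like genes. Krt8, Krt18, Pou5f1, Dppa5a, Utf1, Rps6, Rpl5, Rplp0, Rps12, Rcc1, Malat1 and further annotated hosts were named after their values were seen. The members and lists were chosen with earlier results of these data known. Alternatives varied the cell filters, scaling, pseudocount, gene filter, thinning and ribosomal share.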

Additional observations from a re-analysis of the deposited data

How the results depend on the processing

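No paired analysis was possible because each group held 1 sample and no test was made. The log2 ratio of the 8 host genes summed, 0.36, stayed positive under all 11 alternatives. It was 0.45 with TMM factors and 0.434 with CPM without mitochondrial and ribosomal protein genes, since both divide by another total. It was 0.392 in cells with 5000 to 15000 UMIs, 0.391 without Snhg3 and 0.175 without Gas5. Leaving out Gas5, Snhg3 or Snhg8 was chosen after seeing the data. Of all genes, 5.27% had a log2 ratio above 0.32 when a mean of 50 CPM was required, and 1 host gene did, because Snhg6 and Snhg8 do not reach that mean. Without a filter the shares were 19.2% higher and 20.3% lower. With TMM factors they were 5.57% and 4.60%, and 5.31% were lower with CPM without mitochondrial and ribosomal protein genes. Snhg5 passed the lower limit at 5000 UMIs (-0.34), at 5% mitochondrial UMIs (-0.41) and in the cells with 5000 to 15000 UMIs (-0.36). The number of host genes found in a larger share of sonKD than control cells, 7, ranged from 5 with another seed to 8 with no thinning. Without thinning the libraries differ in depth, with medians of 7737.5 UMIs per control cell and 11612 per sonKD cell. The same share over all genes is not given here, so nothing is read from this number. The Spearman correlation of the summed host genes with the ribosomal protein share was 0.210 in control and 0.234 in sonKD when host UMIs were divided by UMIs of other genes, a divisor that holds the share itself. Under this divisor the median of other genes was -0.014 in both libraries and their 95th percentile 0.153 and 0.129, and the sum lay above 97.2% and 98.5% of them. The divisor moves only counts above 0, and the sum was above 0 in 72.6% of control and 80.5% of sonKD cells. The other genes, taken from 10 CPM upward, were not matched to it in level, so nothing is read from this position. The correlation was 0.104 in sonKD cells with 5000 to 15000 UMIs. Snhg5, at 596 and 375 UMIs, had the widest interval of the 8.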

Other observations

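GENCODE M21 places a snoRNA on the same strand inside 13 further genes of a noncoding type with a mean of at least 10 CPM. They were looked up after the data had been seen. Of these, 8 had a log2 ratio above 0 and 5 below, with a median of 0.21. Of all genes 25.1% were above 0, with a median of -0.12. Higher by more than 0.32 were 5 of the 13, beside 3.5% of all genes. The highest was 2410006H16Rik, with 58.2 CPM (55.9 to 60.6) in control cells against 102 CPM (98.3 to 105) in sonKD cells, a log2 ratio of 0.81 (0.73 to 0.88). Snhg15 was at 0.65 (0.53 to 0.78), AA465934 at 0.64 (0.49 to 0.80), 1110038B12Rik at 0.63 (0.57 to 0.70) and 2700038G22Rik at 0.43 (0.23 to 0.63). The lowest was Rian, an imprinted host, at -0.26 (-0.36 to -0.17). Snhg4 was at -0.16 and Snhg17 at -0.11 (-0.27 to 0.05). Cct6a, at -0.18, is among the 13 by its annotated type, although it is known to encode a chaperonin subunit. Of the 15 other noncoding hosts listed by name, 8 rows reached 10 CPM. Of these rows 6 had a ratio above 0 and 2 below, with a median of 0.23. Snhg15 and Snhg11 (0.30) were farthest from 0. Snhg4, Snhg15, Snhg16, Snhg17, Dancr and Epb41l4aos are also among the 13, so this list is not a separate set.

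Coding hosts by the GENCODE M21 annotation, outside the ribosomal protein genes, had a share below the lower limit near that of all genes. Of 156 such genes with at least 10 CPM, 24, or 15.4%, had a ratio above 0 and 132 below, beside 25.1% of all genes above 0, with a median of -0.15, beside -0.12 over all genes. Higher by more than 0.32 was 1 of them, and 17, or 10.9%, were lower by more than that, beside 10.2% of all genes. All 16 coding hosts listed by name were below 0, with a median of -0.18, and Prrc2a at -1.06 (-1.21 to -0.91) and Nop56 at -0.42 were farthest from 0.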
